A study of Mus musculus with 13 samples.

Results

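The Hoxd cluster was examined for histone H3 trimethylated at lysine 4 (H3K4me3), histone H3 trimethylated at lysine 27 (H3K27me3) and the fusion protein NUP98-PHF23 (NP23) in 4 mouse leukaemia cell lines. The cluster holds 9 genes, Hoxd13, Hoxd12, Hoxd11, Hoxd10, Hoxd9, Hoxd8, Hoxd3, Hoxd4 and Hoxd1, on chromosome 2. Every listed peak that overlapped chr2:74495000-74612000 (build mm9, 117 kb, called the Hoxd window here) was taken, with Hoxd13 at the low end and Hoxd1 at the high end. Of 109165 peaks in the 9 deposited lists, 29 lay in this window. Peaks were taken by position alone and by no measured value, but the cluster was chosen with earlier results of these data known.

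Of the 13 samples, 9 came with a peak list, and the 4 input samples were not used. Line 961C came from an NP23 acute myeloid leukaemia (AML) of a C57BL/6 mouse and is described as myeloblasts. Lines 748T and 106A came from NP23 pre-T LBL of different C57BL/6 mice and are described as lymphoblasts. The libraries of 106A are titled M106A. The control, here called SCL-LMO1 cells, is line 7298/2 from an SCL-LMO1 pre-T LBL on a C57BL/6 and C3H hybrid background. Oncogene and strain therefore differ together between the control and the other lines, and each line is 1 leukaemia, grown without cytokines. The promoter that drives the fusion is not named in the labels. Each line had 1 H3K4me3 and 1 H3K27me3 library, and NP23 was mapped in 961C alone. Its antibody is labelled NP23, and the protocol lists one to the V5 tag. That library is titled 961C-V5, while its cell line is labelled 961C like that of the histone libraries; the labels do not say whether these were the same cells, and its peaks are set beside the 961C histone lists on that label. With 1 library per line and antibody, differences between lines were described and not tested.

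Hox genes encode transcription factors with a DNA-binding homeodomain, and they lie in clusters whose order follows their order of use along the body axis. The Hoxd genes are best known from the skeleton and limb: Hoxd13 patterns digits, Hoxd11 acts with its Hoxa counterpart in the forearm and kidney, and Hoxd3 and Hoxd4 shape the upper neck vertebrae. H3K4me3 marks active or poised promoters. H3K27me3 is laid down by Polycomb complexes and covers silent Hox clusters in many tissues. NUP98 fusions, including NP23, are known for raising Hoxa and Hoxb genes in blood cells, and PHF23 carries a PHD finger that binds H3K4me3.

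Sequencing depth is unknown, because the lists hold pileup heights without totals, and heights were compared within a list only. H3K4me3 lists held 16324 to 17696 peaks. H3K27me3 lists held 19469 peaks in 961C, 8412 in 748T, 5600 in 106A and 4875 in SCL-LMO1 cells. Whether each peak lies on a promoter, an exon or between genes was not analysed here, because the RefSeq gene table used here is on GRCm38.p6, another build than the mm9 of the peaks. That table gave only the order of the genes: on the low side Hoxd13 neighbours Evx2, another homeobox gene, and on the high side Hoxd1 neighbours Mtx2, a mitochondrial import gene. The microRNA gene Mir10b lies after the start of Hoxd4 in this order.

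CpG content is the sequence feature best known to go with both marks at promoters, so it was counted in the 250 bp before each RefSeq start of the 9 genes (GRCm38.p6). All 9 genes matched, with 10 starts because Hoxd11 has 2. CpG dinucleotides (the letters CG, read on either strand alike) numbered 2 to 31 per promoter with a median of 12.5, beside a median of 6 over 32851 promoters. Hoxd13 held 31, a count reached by 5.19% of all promoters, Hoxd1 held 24 (12.0%) and Hoxd10 held 20 (17.9%). At the other end, Hoxd4 held 3 (71.0% of all promoters hold as many) and the first start of Hoxd11 held 2 (81.2%). The second start of Hoxd11 held 20 (17.9%), so its 2 starts differed. The genes at both ends were thus CpG-rich, and those between them ranged widely. The promoters at the ends and that of Hoxd4 are printed to show this contrast, 5′ to 3′ with each CG in capitals. Their positions are on GRCm38.p6, plus strand, and cannot be set against the mm9 peaks: chr2:74667975-74668224 for Hoxd13, chr2:74721728-74721977 for Hoxd4 and chr2:74762730-74762979 for Hoxd1.
Hoxd13: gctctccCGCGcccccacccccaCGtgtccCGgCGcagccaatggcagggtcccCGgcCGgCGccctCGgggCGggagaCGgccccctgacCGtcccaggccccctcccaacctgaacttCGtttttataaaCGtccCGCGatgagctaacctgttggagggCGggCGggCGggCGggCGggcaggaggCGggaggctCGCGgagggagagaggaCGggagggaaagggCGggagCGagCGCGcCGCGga
Hoxd4: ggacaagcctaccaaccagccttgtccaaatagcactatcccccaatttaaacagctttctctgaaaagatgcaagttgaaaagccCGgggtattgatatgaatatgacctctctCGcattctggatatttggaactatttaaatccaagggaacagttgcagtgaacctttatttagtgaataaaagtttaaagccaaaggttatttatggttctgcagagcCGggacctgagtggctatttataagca
Hoxd1: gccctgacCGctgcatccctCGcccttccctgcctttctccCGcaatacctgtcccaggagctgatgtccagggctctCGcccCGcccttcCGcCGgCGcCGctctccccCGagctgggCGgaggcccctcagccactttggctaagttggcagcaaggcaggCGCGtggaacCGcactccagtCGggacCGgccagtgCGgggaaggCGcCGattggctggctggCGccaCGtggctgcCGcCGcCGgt

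**Figure D1:**
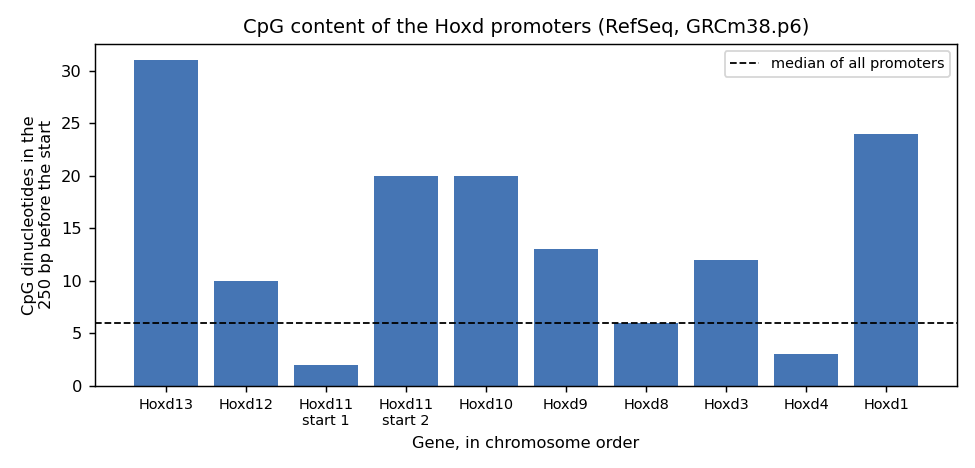
CpG dinucleotides in the 250 bp before each RefSeq start of the 9 Hoxd genes, in chromosome order, with 2 starts for Hoxd11. The dashed line is the median of all promoters, 6, and the bars run between 2 for the first Hoxd11 start and 31 for Hoxd13.

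NP23 had no peak in the Hoxd window of 961C. The 1629 NP23 peaks of the genome included 75 on chromosome 2, and the nearest lay 3.93 Mb beyond the Hoxd1 side and 4.98 Mb beyond the Hoxd13 side. Absence at this scale is common: 0.272% of all 5-kb bins held an NP23 peak, and 94.9% of 22536 genome tiles of the same 117 kb held none. The 2 widest H3K4me3 peaks of 961C differed from this. In a window of equal size around the widest, on chromosome 11 (96132114 to 96184711), NP23 covered 50.6% of the bases, and around the next, on chromosome 6 (52156421 to 52185551), it covered 25.0%. These regions were taken for their H3K4me3 width in 961C, so their values are a description.

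No H3K4me3 was listed in the Hoxd window in 961C, and some was listed in each of the 3 pre-T lines. The 961C list had 0 peaks there, against 3 peaks covering 919 bp in 748T, 2 peaks covering 4379 bp in 106A and 5 peaks covering 1831 bp in SCL-LMO1 cells. Among 24 bins of 5 kb, of which the last spans 2 kb, 0 held a peak in 961C, 3 in 748T, 3 in 106A and 4 in SCL-LMO1 cells. Over all chromosomes 3.45%, 3.38%, 3.10% and 3.53% of 5-kb bins held a peak of the same lists, in that order of lines. A window of this size without any H3K4me3 peak of 961C was not rare, since 67.9% of genome tiles had none. At least as many peaks as in the window were found in 11.5% of tiles for 748T, 18.0% for 106A and 3.80% for SCL-LMO1 cells. The H3K4me3 peaks of the window were low for their lists: with the taller 50% of each list, 0 remained in any line.

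The 961C H3K4me3 list was not blank around the window. Outside the window, all 4 lines had a peak that ended 77256 to 77503 bp below it and another that began 51537 to 51651 bp above it. The lower one, at chr2:74415837-74417585 in 961C, reached 69 reads in 961C, 144 in 748T, 143 in 106A and 133 in SCL-LMO1 cells. The upper one, at chr2:74663538-74664924 in 961C, reached 72, 140, 160 and 113 reads in the same lines. Median maxima over the whole lists were 38, 76, 97 and 76 reads in that order, and none is scaled to depth. Tall flank peaks therefore do not show that low peaks inside the window would have been listed in 961C, and this was not tested. No H3K4me3 of any line in the window was as tall as these neighbours in its own list.

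**Figure D2:**
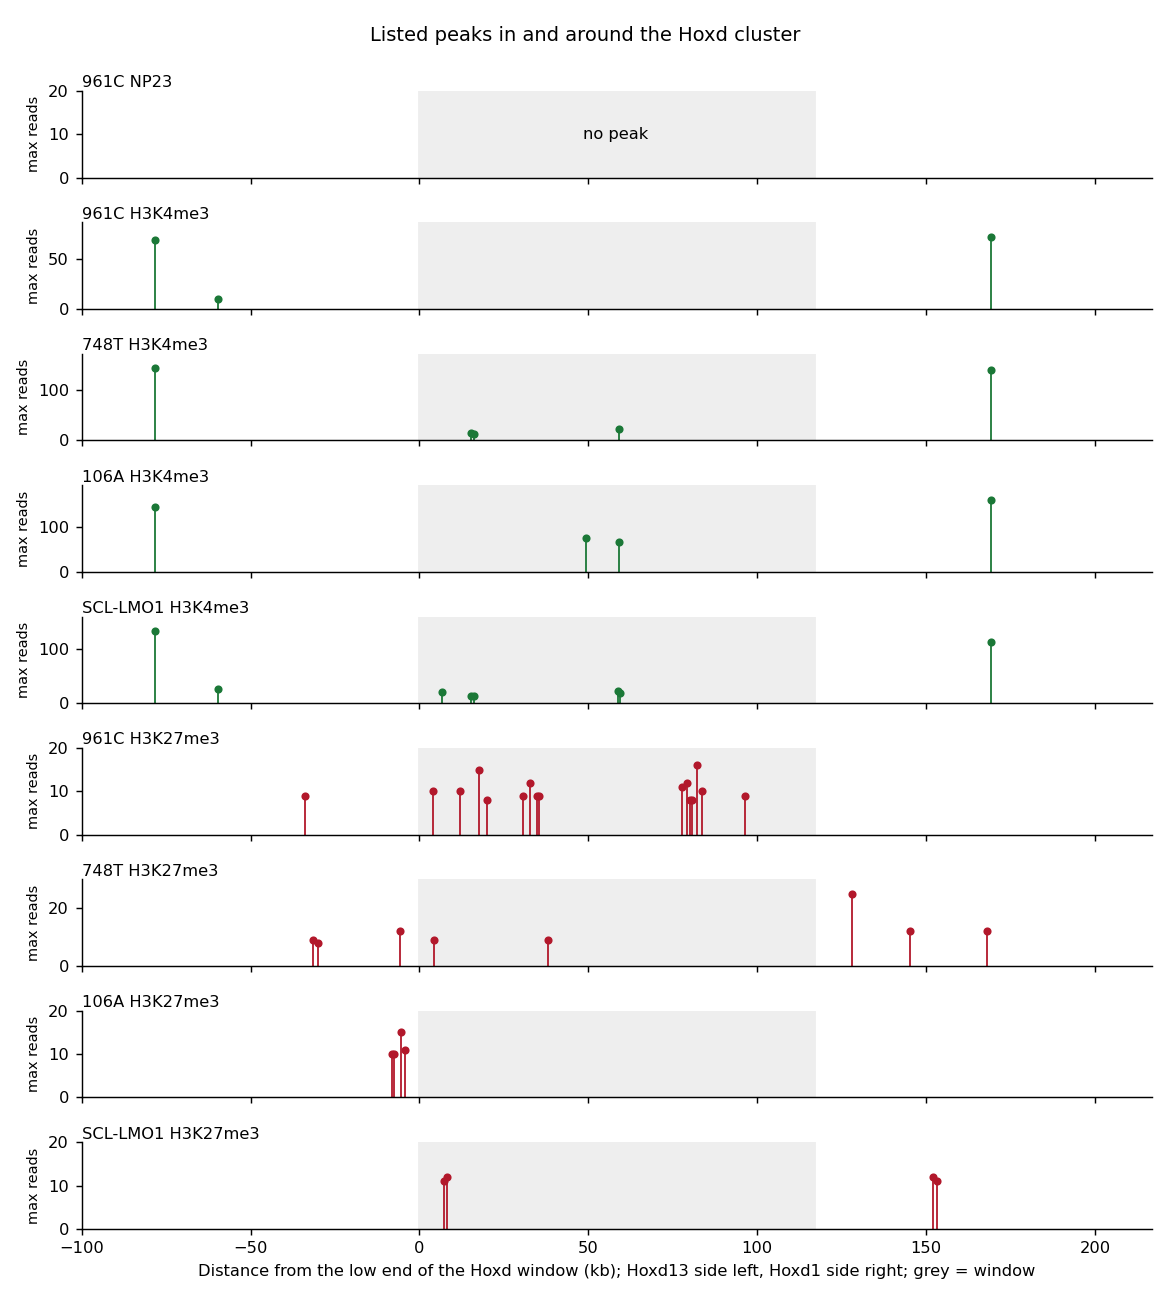
Maximum pileup of each listed peak (reads, vertical axis, scaled per list) against its distance from the low end of the Hoxd window in kb, for the window (grey) and 100 kb on each side. H3K27me3 of 961C has 15 peaks in the window while its H3K4me3 and NP23 rows are empty there, and 2 tall H3K4me3 peaks stand outside the window in all 4 lines.

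The widest H3K4me3 of the cluster was listed in 106A. Its wider peak, chr2:74542698-74546059, was 3362 bp long, with a mean pileup of 24.6 reads and a maximum of 75. Only 4.08% of the peaks in that list were as wide, while 58.8% were as tall. No H3K4me3 peak of 961C, 748T or SCL-LMO1 cells overlapped it. Its other peak, chr2:74553589-74554605, was 1017 bp long and reached 65 reads.

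That second position was the one H3K4me3 site of the window shared by all 3 pre-T lines. The second track averaged 1.06 reads over the 106A peak and 1.64 over chr2:74554156-74554479 of SCL-LMO1 cells. With peaks above 1 read left out, both were lost. That limit lay below the median of the second track over the 106A list (1.46 reads) and the SCL-LMO1 list (1.07). Over the 748T list the median was 0.197. Being lost therefore does not set either peak apart in its list. The remaining peaks of 748T and SCL-LMO1 cells lay 254 bp apart at this site, so they shared the bin but did not overlap. In 748T the site carried a single peak of 130 bp with a maximum of 22 reads (chr2:74554140-74554269). In SCL-LMO1 cells it carried 2 peaks of 338 and 324 bp with maxima of 22 and 19 reads (chr2:74553548-74553885 and chr2:74554156-74554479). Of the merged site of 1058 bp, 106A covered 96.1%, 748T 12.3% and SCL-LMO1 cells 62.6%. The site was thus widest in one NP23 line and narrowest in the other, with the control between them.

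Nearer to the Hoxd13 end, 748T and SCL-LMO1 cells carried the same low pair of H3K4me3 peaks and 106A carried none. In 748T these were chr2:74509914-74510534 (621 bp, maximum 14 reads) and chr2:74511020-74511187 (168 bp, 12 reads). In SCL-LMO1 cells they were chr2:74509988-74510572 (585 bp, 14 reads) and chr2:74510992-74511167 (176 bp, 14 reads). Between 93.5% and 97.3% of the peaks in these lists were at least as tall, so both pairs stood near the lower limit of what was listed. SCL-LMO1 cells had 1 further peak of their own, chr2:74501343-74501750 (408 bp, 20 reads). All 3 peaks of 748T overlapped a peak of SCL-LMO1 cells, and 1 of the 2 peaks of 106A did. Over the genome 81.1% of 748T and 83.3% of 106A H3K4me3 peaks overlapped one of SCL-LMO1 cells, so most peaks of both lists were shared in this way and nothing particular to the window is read from these counts.

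By bins, every place marked in 748T was marked in SCL-LMO1 cells too, while 106A shared 1 bin with them. Coverage in 748T was 1.74% of 74505001 to 74510000, 14.0% of the next bin and 2.60% of 74550001 to 74555000. In 106A it was 46.1%, 21.2% and 20.3% in the 3 bins that run from 74540001 to 74555000. SCL-LMO1 cells had 8.16% of 74500001 to 74505000, 0.260% and 15.0% of the 2 bins after it, and 13.2% of 74550001 to 74555000. No bin was marked in 748T and free in SCL-LMO1 cells (0.554% of all bins had that pattern), while 2 were marked in 106A and free in SCL-LMO1 cells (0.398%). Between the NP23 pre-T lines, 1 bin was marked in both (2.70%) and 4 in 1 of them (1.08%). The bin of 74550001 to 74555000 was the one marked in all 3 pre-T lines and free in 961C (0.323% of all bins). The 12 bins above it, up to the Hoxd1 end of the window, had no H3K4me3 in any line.

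H3K27me3 was listed most densely in 961C, the line without H3K4me3 in the window. The Hoxd window held 15 H3K27me3 peaks in 961C, covering 11347 bp or 9.70% of its bases, where the list covered 0.335% of the genome. It held 2 peaks (522 bp) in 748T, 0 in 106A and 2 (352 bp) in SCL-LMO1 cells. Per 1000 peaks of each list, that was 0.770 in 961C, 0.238 in 748T, 0 in 106A and 0.410 in SCL-LMO1 cells. Of the 24 bins, 9 were marked in 961C (2.43% of all bins), 2 in 748T (1.24%), 0 in 106A (0.889%) and 1 in SCL-LMO1 cells (0.855%). As many peaks as in 961C were found in 1.10% of genome tiles of that list, as many as in 748T in 6.51%, and as many as in SCL-LMO1 cells in 4.94%, and 88.6% of tiles had none of 106A. Bins marked in 961C and free in another line numbered 7 for 748T (2.07% of all bins), 9 for 106A (2.18%) and 9 for SCL-LMO1 cells (2.25%), and 7 were marked in 961C alone (1.80%). No bin was marked in both NP23 pre-T lines (0.138%), and 2 were marked in 1 of them (1.85%).

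**Figure D3:**
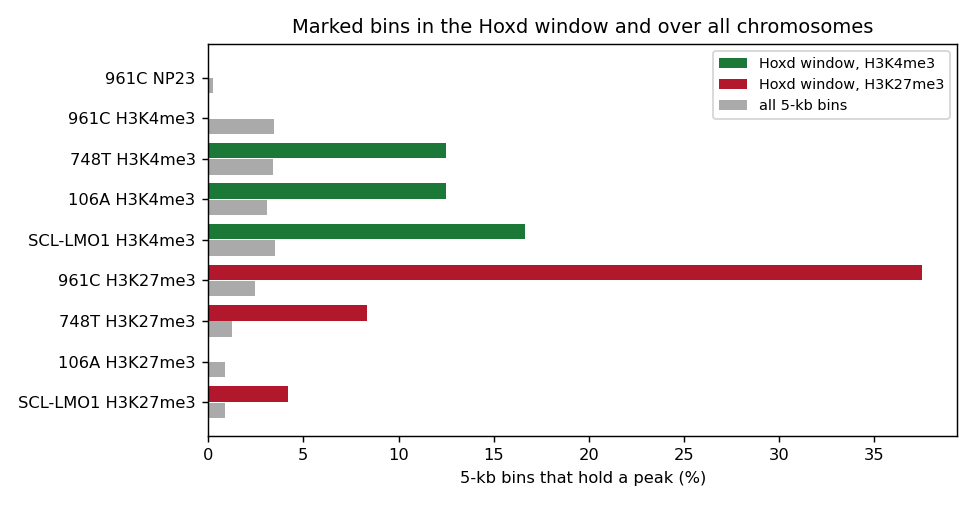
Percentage of 5-kb bins that hold a peak in the Hoxd window (24 bins, coloured bars) and over all chromosomes (grey bars), for each of the 9 lists. The bar for H3K27me3 of 961C stands for 9 of 24 bins beside 2.43% of all bins, and 3 lists have no bar in the window.

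The 961C peaks formed groups that a gap of over 5 kb set apart. The widest H3K27me3 peak of the window, chr2:74511602-74513926, was 2325 bp long with a mean of 5.90 reads and a maximum of 15, and 1.39% of the list was as wide. It was followed by chr2:74514237-74515622 (1386 bp, maximum 8 reads), and with a short peak before them these made a group of 8767 bp. A group of 4 peaks from 74525465 to 74530357 included chr2:74527035-74528266 (1232 bp, 12 reads). The group with the most peaks, 6 of them from 74572320 to 74578839, held chr2:74572320-74573333 (1014 bp, 11 reads) and the tallest 961C H3K27me3 peak of the window, chr2:74576571-74577672 (1102 bp, 16 reads). Peaks covered 45.2%, 51.5% and 61.3% of the spans of these groups. The remaining 2 peaks stood alone, 574 bp at 74498599 on the Hoxd13 side and 295 bp at 74591376 on the Hoxd1 side.

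Coverage by H3K27me3 of 961C was highest in 74510001 to 74515000, at 61.8%. It was 47.3% in 74525001 to 74530000, 41.1% in 74570001 to 74575000 and 38.8% in the bin after that. The other 5 marked bins had between 3.12% and 12.4%. Bins from 74535001 to 74570000 had none.

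**Figure D4:**
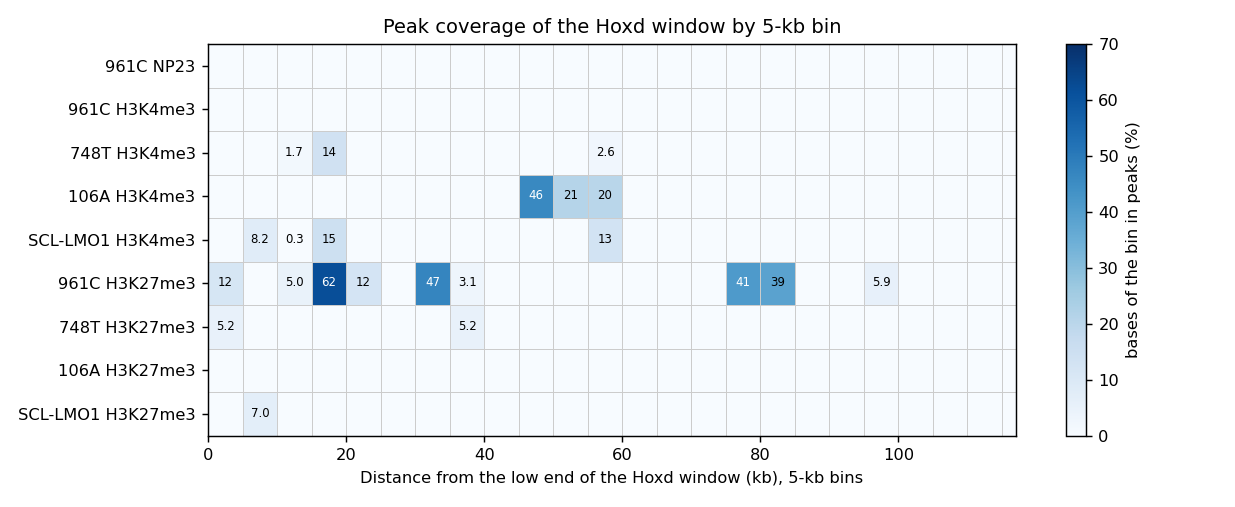
Percentage of each 5-kb bin covered by listed peaks (colour and printed value, 2 digits) across the Hoxd window, with the 9 lists as rows and distance from the low end in kb along the horizontal axis. The darkest cell is H3K27me3 of 961C at 61.8%, and the 106A H3K4me3 cells fall in the stretch where H3K27me3 of 961C is missing.

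The peaks of 961C were wide and low for their list. Their median width was 622 bp, against 289 bp over the whole list, and their median maximum was 10 reads, against 12. The second track, read as background, averaged at most 0.398 reads over any of them. Because the peaks were low, the count depended on which peaks were kept. With the taller 50% of each list, 2 peaks remained in 961C and none in the other lines. With every H3K27me3 list reduced to 4875 peaks, 961C kept 10 peaks in the window where the widest were kept and 1 where the tallest were kept. In 748T, 2 remained where the widest were kept and 0 where the tallest were kept, and SCL-LMO1 cells, whose list has that length, had 2. How far the longer list and unknown depth of 961C enter its count was not tested.

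**Figure D5:**
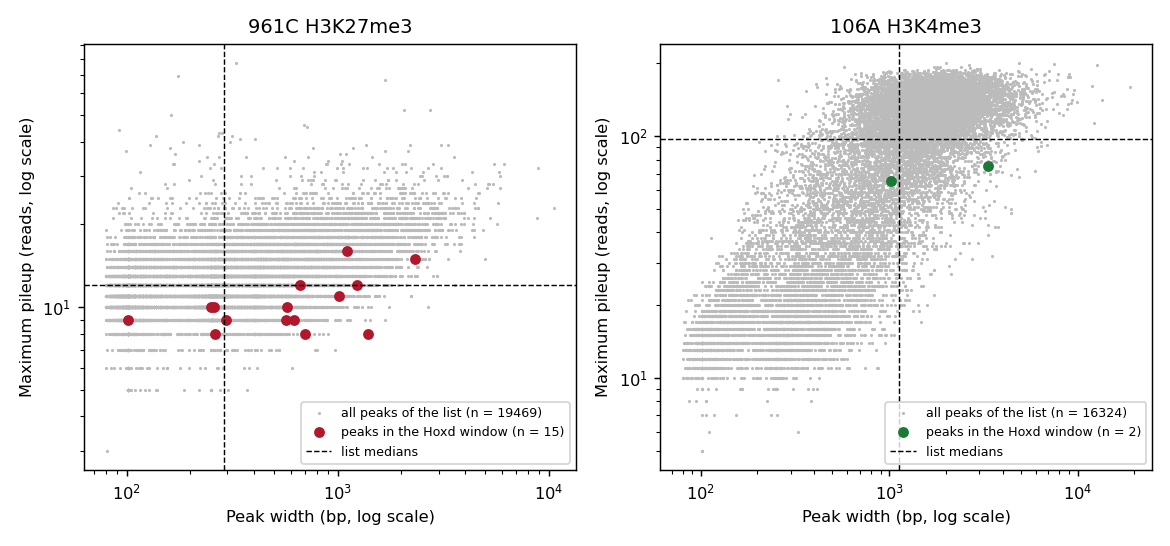
Maximum pileup (reads) against width (bp) of every peak in the 961C H3K27me3 list and the 106A H3K4me3 list, both axes on log scales, with the peaks of the Hoxd window as large points and list medians dashed. Most of the 15 H3K27me3 peaks lie right of the median width and at or below the median height of 12 reads.

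The few H3K27me3 peaks of the pre-T lines lay mostly at the Hoxd13 end. In 748T they were chr2:74499135-74499394 (260 bp) and chr2:74533015-74533276 (262 bp), each with a maximum of 9 reads. The first overlapped a 961C peak by 38 bp, the only H3K27me3 overlap between lines in the window. SCL-LMO1 cells had chr2:74502224-74502474 (251 bp, 11 reads) and chr2:74503002-74503102 (101 bp, 12 reads). Line 106A had no peak inside, but 4 within the 10 kb below the window, between 74486839 and 74491080, with maxima of 10 to 15 reads. The nearest ended 3920 bp from the edge, so the count of 0 in 106A depended on where the window began. One of those 4 overlapped a 748T peak (chr2:74489281-74489441). Between 74486839 and 74503102, at the Hoxd13 edge, each of the 4 lines thus had listed H3K27me3, at positions that mostly did not overlap. This stretch was drawn around the peaks themselves and reaches outside the window, so nothing particular to the edge is read from it.

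The marks did not overlap in the window in any line, and they seldom did elsewhere: over the genome, 2.06% of H3K27me3 peaks met H3K4me3 of the same line in 961C, 1.74% in 748T, 0.464% in 106A and 0 of 4875 in SCL-LMO1 cells. None of the 15 H3K27me3 peaks of 961C met H3K4me3 of the same line. With no H3K4me3 of 961C in the window, that count could not be otherwise. Nor could the marks overlap there in 106A, which had no H3K27me3 peak in the window. In SCL-LMO1 cells the marks came closest, 473 bp apart, and shared 1 bin (0.00587% of all bins), the bin of 74500001 to 74505000. In 748T the smallest distance between the marks was 10519 bp. Across lines, the H3K4me3 pair of 748T and SCL-LMO1 cells ended 414 bp before the widest H3K27me3 peak of 961C, which occupied the same bin. The H3K4me3 sites between 74542698 and 74554605 lay in the longest stretch free of 961C H3K27me3, between the groups ending at 74530357 and starting at 74572320. That stretch, 41962 bp of the 117 kb, held 5 of the 10 H3K4me3 peaks of the pre-T lines. All of these but the wider 106A peak belonged to the 1 merged site of 1058 bp, so no preference for the stretch is read from the count.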

How the data were processed

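Chromatin immunoprecipitation sequencing of 9 samples was used. Formaldehyde-fixed, sonicated chromatin was precipitated with an antibody labelled NP23, H3K4me3 or H3K27me3, then sequenced single-end on GAIIx or MiSeq instruments, per the labels' protocols. BWA 0.5.9-r26, CASAVA 1.9 and build mm9 are named in the submitters' processing notes. No source used here names the peak caller or its threshold. The text field deposited by the authors gives, for each peak of 1 library, the mean and maximum pileup and those of a second track, which was read as background from its low values. Of 109165 rows, 5 lack it. These values show no scaling to depth.

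Peaks overlapping the Hoxd window by at least 1 bp were counted and covered bases summed in 5-kb bins aligned to chromosome starts. The background was 527999 such bins on 21 chromosomes, each taken to end at the furthest peak of any list, and tiles of the window's size. Samples were grouped by line and antibody, with 748T and 106A as the NP23 pre-T group, and no test was made. In lists of over 10 peaks in the window, the 5 widest and the tallest were to be named; other peaks, groups and regions were chosen with their values in view. The members and the ways of describing them were chosen with earlier results of these data known. Coverage and joining steps were tested on simulated data. Python 3.11.15, numpy 2.4.6, pandas 2.3.3, scipy 1.17.1 and matplotlib 3.10.9 were used.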

Additional observations from a re-analysis of the deposited data

How the results depend on the processing

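Of 159 recomputed counts of peaks or bins in the Hoxd window, 118 stayed within 1.5 times the reported value. NP23 and H3K4me3 of 961C stayed at 0 in each setting tried for them. Most of those settings only remove, merge or regroup listed peaks, so their 0 was fixed in advance. Widening the window by 10 kb at each end also gave 0 for both. That 0 was fixed too, because the nearest NP23 peak lay 3.93 Mb from the window and the nearest H3K4me3 peak of 961C 51537 bp from it. The overlap of 961C H3K27me3 with either was 0, also when 50% of the narrower peak had to be shared. With no peak of either in the window, that overlap was fixed at 0 under both rules. These fixed zeros are counted among the 118, so that total is not read as a measure of stability. No paired analysis was possible because no antibody was repeated within a line.

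With the taller 50% of each list, H3K27me3 of 961C fell to 2 peaks in 2 bins, which left 2 bins marked in 961C and free in each other line. The 748T, 106A and SCL-LMO1 lists then had 0 H3K4me3 and 0 H3K27me3 peaks and bins, and bins marked by H3K4me3 in 106A and free in SCL-LMO1 cells numbered 0. With lists of equal length and the tallest peaks kept, a choice made after seeing the data, H3K27me3 gave 1 peak in 1 bin in 961C and 0 in 748T, and H3K4me3 gave 1 peak in 1 bin in 748T and 3 peaks in 2 bins in SCL-LMO1 cells. With the widest kept, also chosen afterwards, 748T had 1 H3K4me3 peak. Joining peaks within 1 kb left 7 H3K27me3 peaks in 961C and 1 in SCL-LMO1 cells, and 3 H3K4me3 peaks in SCL-LMO1 cells, since joining merges neighbours. Asking for 10% of a bin left 1 H3K4me3 bin in 748T and 2 in SCL-LMO1 cells, and 0 H3K27me3 bins in either. A second-track limit of 1 read left 1 H3K4me3 peak in 106A, which removed 106A from the site of all 3 pre-T lines. This limit lies below the median of the second track over the H3K4me3 lists of 106A and SCL-LMO1 cells, but not over that of 748T. It left 4 H3K4me3 peaks in SCL-LMO1 cells, without the one that overlapped 748T at that site. Widening the window by 10 kb at each end gave 106A 4 H3K27me3 peaks in 2 bins, and narrowing it by 5 kb left 748T 1 peak in 1 bin. Shifting bins by 2.5 kb gave SCL-LMO1 cells 2 H3K27me3 bins. Bins marked in at least 1 NP23 pre-T line numbered 5 for H3K4me3, and 3 when either line was left out, and 2 for H3K27me3, with a range of 0 to 2 when each line was left out. Depth is unknown, so a missing peak means only that none was listed.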

Other observations

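Beyond the window, H3K27me3 differed between the lines as well. On the Hoxd1 side, within 100 kb, 961C had 0 peaks, 748T had 3 covering 905 bp, 106A had 0 and SCL-LMO1 cells had 2 covering 1202 bp. The tallest of 748T, chr2:74622876-74623093, reached 25 reads, above the 9 reads of both 748T peaks inside the window. On the Hoxd13 side, within 100 kb, 961C had 1 peak of 251 bp, 748T had 3 covering 592 bp, 106A had 4 covering 1726 bp and SCL-LMO1 cells had 0. H3K27me3 of 961C thus had 15 peaks inside the window and 1 in the 200 kb around it. Line 961C and SCL-LMO1 cells also shared a low H3K4me3 peak on the Hoxd13 side, near 74435252, that was listed in neither NP23 pre-T line, with 10 reads in 961C and 27 in SCL-LMO1 cells.

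In a window of the same size around the wide H3K4me3 peak on chromosome 6, the 961C line carried 24 H3K27me3 peaks covering 20.6% of the bases beside 30.2% under H3K4me3. In the Hoxd window the same line had 9.70% under H3K27me3 and 0 under H3K4me3. Both windows had 0 H3K27me3 peaks in 106A and few in 748T (3 on chromosome 6, 2 in the Hoxd window). Around the chromosome 11 peak the order of the lines was another, with 4 peaks in 961C, 12 in 748T, 22 in 106A and 7 in SCL-LMO1 cells.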
